A study of Oryza sativa with 6 samples.

Results

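YSL2, YSL15 and YSL16, rice genes of the yellow stripe-like (YSL) family, were followed through nodal roots and both kinds of lateral root, with and without salt. They were taken by their Rice Annotation Project identifiers, Os02g0649900, Os02g0650300 and Os04g0542800, and all 3 were found among the 37942 gene models of the deposited tables. Messenger RNA had been sequenced from rice roots (genotype label Mulai) that were either treated with 50 mM NaCl for 7 days (salt) or kept as controls, in L-type lateral, S-type lateral and nodal roots. L-type laterals are the long branching kind, S-type laterals the short unbranched kind, and nodal roots arise from the stem and carry both. All 6 groups shared the genotype and the growth conditions, and each held 1 library, so no difference below has a replicate check. The intervals given are 95% intervals that cover counting error only, and sequenced fragments are not independent molecules. The labels do not say whether root types came from the same plants, how many plants were pooled or at what hour roots were taken. The 3 genes were picked with their levels and salt ratios already known, so these values are a description and no test is made of them.

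YSL proteins are membrane transporters that carry metal ions bound to nicotianamine or to the phytosiderophores made from it. Grasses release phytosiderophores, in rice mainly deoxymugineic acid, into the soil, where they bind ferric iron, and take the complex back up. In rice, YSL15 is the transporter known for that uptake at the root surface. YSL2 is known as a carrier of ferrous iron and manganese bound to nicotianamine, active in the phloem, and YSL16 as a vascular carrier of ferric deoxymugineic acid and of copper bound to nicotianamine. Transcripts of YSL2 and YSL15 are known to accumulate in iron-deficient rice roots.

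Between 5620282 and 8711710 fragments fell in genes of a library. The root silicon transporter genes Lsi1 and Lsi2 were high in every library, Lsi1 at 369 FPKM or more and Lsi2 at 159 FPKM or more. Their log2 salt ratios in L-type, S-type and nodal roots were 0.30, 0.04 and 0.83 for Lsi1 and 0.60, 0.17 and 0.96 for Lsi2. FPKM, fragment counts divided by transcript length and library size, is the scale used here to compare genes. The 3 genes of green tissue were below Lsi1 and Lsi2 in every library. In control nodal roots, however, CAB1R (17.3 FPKM) and CAB2R were above YSL2, YSL15 and YSL16 (4.22, 6.59 and 7.87 FPKM). CAB1R lay between 3.38 and 26.6 FPKM, with log2 salt ratios of -1.80 in L-type, -1.34 in S-type and -2.01 in nodal roots. CAB2R reached 14.2 FPKM in control nodal roots and was at 0.553 FPKM or less in every lateral library, where the salt L-type library had 0, and RBCS stayed at 3.96 FPKM or less, with 0 in both S-type libraries. SUT1, a phloem sucrose transporter gene, lay between 1.05 and 3.84 FPKM. The secondary wall genes CESA4, CESA7 and CESA9 had log2 salt ratios of 0.55, 0.58 and 0.81 in L-type roots, and of -0.35, -0.55 and -0.42 in nodal roots. In S-type roots they had 0.37, -0.17 and -0.15, on 67 fragments or fewer per library. Ranked over 16863 genes, salt L-type and salt nodal roots correlated at a Spearman rho of 0.944, and control L-type and control nodal roots at 0.875. For S-type and nodal roots rho was 0.778 under salt and 0.718 under control. For L-type and S-type roots it was 0.878 under salt and 0.877 under control. The part of these differences in the results below was not tested.

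**Figure D1:**
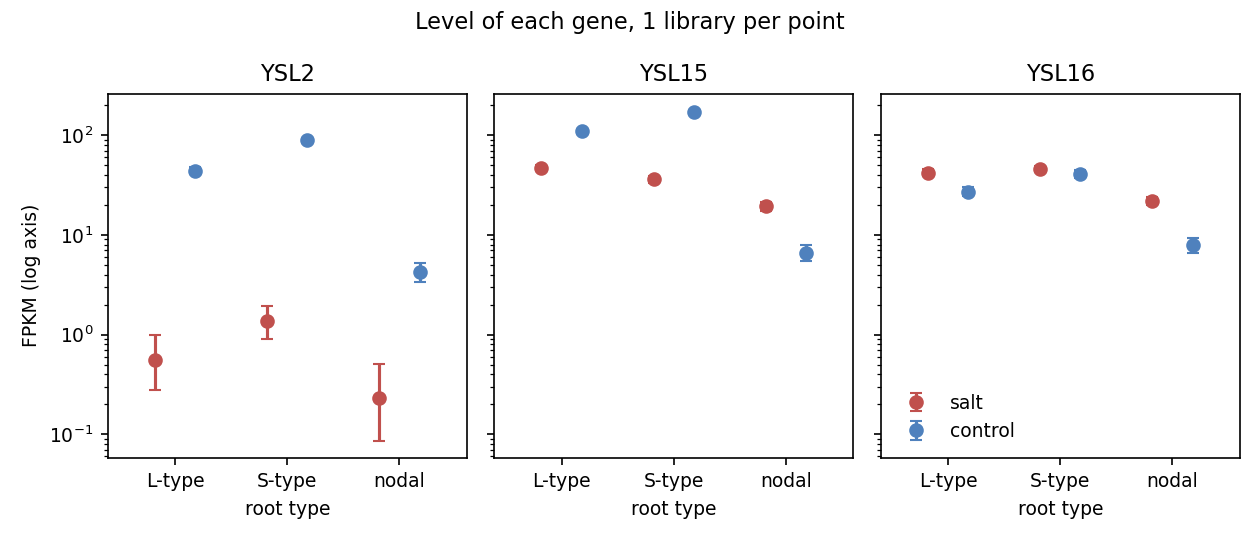
FPKM of YSL2, YSL15 and YSL16 (log axis) in L-type, S-type and nodal roots, with salt left of control; each point is 1 library and bars are 95% counting intervals. YSL2 sits at or below 1.35 FPKM in all 3 salt libraries and at 4.22 FPKM or above in all 3 control libraries, while the salt points of YSL16 lie above their controls.

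YSL2 (chromosome 2, 26170850 to 26175202 on IRGSP-1.0) was low in every salt library. In L-type roots it had 0.557 FPKM under salt, from 11 fragments, and 44.3 FPKM under control, from 717 fragments. In S-type roots it had 1.35 FPKM under salt (29 fragments) and 89.0 FPKM under control (1401 fragments). In nodal roots it had 0.232 FPKM under salt (6 fragments) and 4.22 FPKM under control (86 fragments). The highest salt level was therefore below the lowest control level. The share of all genes separated in that way was not counted. Nothing is read from the separation, since YSL2 was picked with these levels known. From high to low the order was control S-type, control L-type, control nodal, salt S-type, salt L-type and salt nodal roots, and among these only the salt S-type and L-type libraries, and the salt L-type and nodal libraries, had overlapping counting intervals. In whole-tissue RNA, fewer cells that express a gene and less of its RNA per cell cannot be told apart.

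The salt ratio of YSL2 was taken, as for all genes, as log2 of salt over control after adding 1 to the scaled fragment values. Scaled fragments are the deposited counts, already multiplied by 1 factor per library. The log2 ratio was -6.34 in L-type roots (interval -7.48 to -5.62), -6.05 in S-type roots (-6.69 to -5.58) and -3.66 in nodal roots (-5.39 to -2.73). In L-type roots no other of the 15310 genes with at least 50 scaled fragments in the higher library had a lower ratio. In S-type roots YSL2 ranked as number 6 from the lowest among 14762 genes, and in nodal roots as number 6 among 15223. At least 2-fold lower under salt were 4.22% of genes in L-type, 1.80% in S-type and 1.75% in nodal roots. YSL2 was 1 of 23 genes (0.174% of 13254) lower by that margin in all 3 root types. Since the members were picked by these ratios, nothing is read from those shares.

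With 1 added to both scaled values, YSL2 under salt amounted to 1.24% of control in L-type, 1.504% in S-type and 7.89% in nodal roots. The added 1 raises the nodal figure most, where 4.98 scaled fragments under salt stood against 74.7 under control. The difference of the salt ratios was -2.67 for L-type minus nodal (-4.16 to -0.80) and -2.39 for S-type minus nodal (-3.54 to -0.60). For L-type minus S-type roots it was -0.28 (-1.52 to 0.69), an interval that includes 0. Each of these rests on the 6 fragments of the salt nodal library or the 11 of the salt L-type library.

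YSL15 (chromosome 2, 26200020 to 26204980) differed in direction between root types. It had 47.1 FPKM under salt and 109 FPKM under control in L-type roots. In S-type roots it had 36.3 FPKM under salt and 171 FPKM under control. Nodal roots had 19.3 FPKM under salt and 6.59 FPKM under control. Salt values thus lay below control in both laterals and above it in nodal roots, and the 3 salt libraries fell inside the range of the 3 control libraries. No counting interval of one library overlapped that of another: from high to low the order was control S-type, control L-type, salt L-type, salt S-type, salt nodal and control nodal.

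The log2 salt ratio of YSL15 was -1.23 in L-type roots (-1.36 to -1.11), -2.22 in S-type roots (-2.36 to -2.09) and 1.58 in nodal roots (1.28 to 1.92). In nodal roots it ranked as number 56 from the highest, where 1.27% of genes were at least 2-fold higher. In S-type roots it was number 43 from the lowest, and in L-type roots number 437 of 15310, within percentiles 1 to 99 of all genes. The ratio in laterals minus that in nodal roots was -2.82 for L-type (-3.18 to -2.49) and -3.81 for S-type (-4.17 to -3.48), and L-type minus S-type was 0.99 (0.80 to 1.17). A salt ratio at least 2-fold lower in S-type than in nodal roots was found for 3.93% of genes, and in L-type than in nodal roots for 4.84%.

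Of 13254 genes past the minimum in all 3 comparisons, 2 were at least 2-fold higher under salt in nodal roots and at least 2-fold lower in both laterals (0.0151%). One was YSL15, and the other was Os01g0952800, with 1.04 in nodal, -1.62 in L-type and -2.61 in S-type roots. That identifier stood in the list of iron genes examined here, but the symbol recalled for it could not be matched in the reference gene table. It was singled out after its values were seen. YSL15 was picked with its salt ratios known, so nothing is read from the share of 0.0151%. That share also depends on the 2-fold margin. The nicotianamine synthase genes NAS1 and NAS2 were lower by that margin in both laterals, but had 0.67 and 0.59 in nodal roots.

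YSL16 (chromosome 4, 27183978 to 27187746) was higher under salt mainly in nodal roots. It had 42.3 FPKM under salt and 27.0 FPKM under control in L-type roots. S-type roots had 46.2 FPKM under salt and 41.1 FPKM under control, and nodal roots 22.0 FPKM under salt and 7.87 FPKM under control. Each salt library was above its own control, although control S-type roots exceeded salt nodal roots.

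The log2 salt ratio of YSL16 was 0.66 in L-type roots (0.48 to 0.85), 0.17 in S-type roots (0.01 to 0.33) and 1.48 in nodal roots (1.21 to 1.76). In S-type roots it ranked as number 4053 from the highest of 14762 genes. The nodal ratio ranked as number 66 from the highest of 15223. The silicon transporter genes Lsi1 and Lsi2 also had their highest salt ratio in nodal roots and their lowest in S-type roots, and the part of this in the YSL16 values was not tested. The ratio in laterals minus that in nodal roots was -0.81 for L-type (-1.16 to -0.49) and -1.31 for S-type (-1.64 to -1.0003). From high to low, salt S-type, salt L-type and control S-type formed a group of neighbours with overlapping counting intervals (43.1 to 49.5, 39.3 to 45.4 and 37.7 to 44.8 FPKM), followed by control L-type, salt nodal and control nodal roots without overlap.

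**Figure D2:**
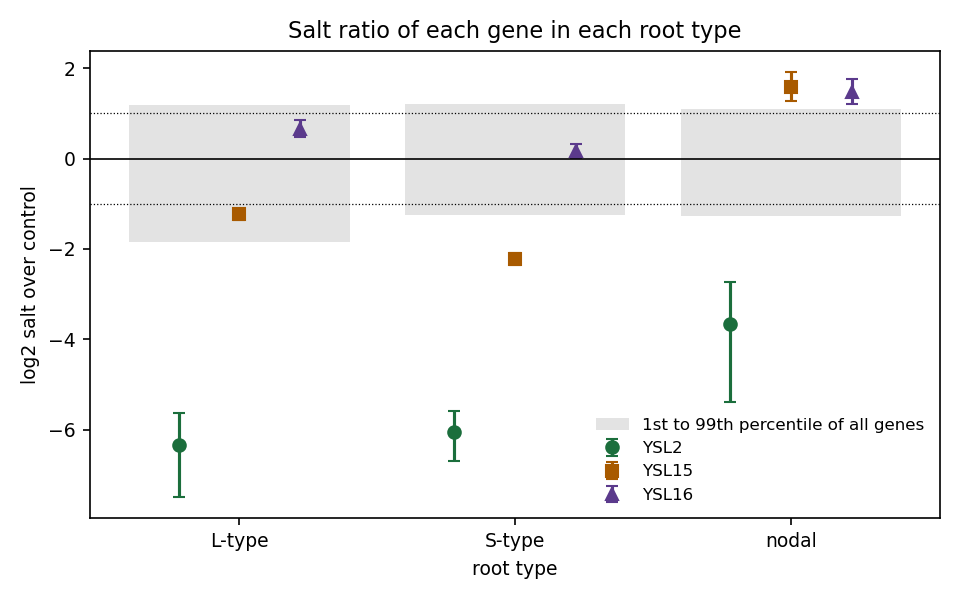
Log2 ratio of salt over control (y axis) for YSL2, YSL15 and YSL16 in each root type; bars are 95% counting intervals, grey bands span percentiles 1 to 99 of all genes measured there, and dotted lines mark 2-fold. YSL2 lies below the band in all 3 root types, YSL15 is at 1.58 in nodal roots and at -1.23 and -2.22 in the laterals, and YSL16 is highest in nodal roots at 1.48.

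All 3 genes were higher in lateral than in nodal roots under control. YSL2 was higher than in nodal roots by 3.57 on the log2 scale in L-type (3.26 to 3.93) and by 4.57 in S-type roots (4.28 to 4.92). YSL15 was higher by 4.15 (3.88 to 4.45) and 4.73 (4.47 to 5.04), and YSL16 by 1.76 (1.49 to 2.05) and 2.37 (2.11 to 2.65), in the same order. At least 2-fold higher than in nodal roots under control were 11.2% of genes in L-type and 21.3% in S-type roots. YSL15 was number 45 from the highest of 15730 genes in L-type over nodal roots. Markers of cell types differed between root types as well. Under control, Lsi1 was higher than in nodal roots by 1.497 in L-type and 2.76 in S-type roots on the log2 scale, and Lsi2 by 1.85 and 3.29, while the ratios of CESA4, CESA7 and CESA9 to nodal roots lay between -5.78 and -2.84. The part of these in the YSL ratios was not tested. Between the laterals under control, all 3 had less RNA in L-type roots, with log2 ratios of L-type over S-type of -1.003 for YSL2 (-1.14 to -0.87), -0.58 for YSL15 (-0.69 to -0.48) and -0.60 for YSL16 (-0.81 to -0.41). At least 2-fold lower in that comparison were 11.5% of genes, a margin that YSL15 and YSL16 did not reach. Counted from the highest of 15617 genes, YSL2 was number 13831, YSL15 number 11874 and YSL16 number 12021. The median log2 ratio of all genes there was -0.08.

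Under salt the distance between laterals and nodal roots was smaller for each gene. YSL15 had a log2 ratio of 1.33 for L-type over nodal (1.15 to 1.52) and 0.92 for S-type over nodal roots (0.73 to 1.12). YSL16 had 0.95 (0.78 to 1.12) and 1.05 (0.89 to 1.23). YSL2 had 0.90 (-0.54 to 2.74) and 2.18 (1.10 to 3.95), on 6 fragments in nodal roots, and none of its salt libraries reached the minimum of 50 scaled fragments. Genes at least 2-fold higher than in nodal roots were also fewer under salt, 4.51% in L-type and 18.2% in S-type roots. For YSL15 the order of the laterals turned: L-type over S-type roots was 0.40 under salt (0.25 to 0.56), while YSL16 had -0.11 (-0.25 to 0.03), an interval that includes 0, and 0.14 when libraries were scaled by their totals.

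The authors' deposited table gives a yes or no call for each of 15 pairs of libraries. It calls YSL15 in 2 pairs, control L-type against control nodal and control S-type against control nodal roots, both with a q-value of 0.0199. Over all genes it calls 0.186% in the first pair and 1.10% in the second. Over all genes and pairs it calls 0.321%. It calls neither YSL2 nor YSL16 in any pair, although 3 of the 15 pairs were not tested for YSL2, and none of the 3 genes between salt and control. In the authors' deposited table YSL2 has a q-value of 0.118 in S-type, 0.563 in L-type and 0.682 in nodal roots for salt against control. Between salt and control that table calls 0.0709% of genes in S-type, 0.0244% in L-type and 0% in nodal roots.

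The share of the 3 genes within their family differed between salt and control. In L-type roots the 3 together took 32.7% of the summed FPKM of all 18 rice YSL genes under salt, against 51.9% under control. In S-type roots they took 34.6% under salt, against 64.6% under control. Nodal roots ran the other way, with 21.6% under salt and 11.8% under control. YSL2 alone took 0.203% under salt and 12.7% under control in L-type roots, and 0.558% under salt and 19.1% under control in S-type roots. YSL15 took 17.1% under salt and 31.5% under control in L-type roots, 14.96% under salt and 36.7% under control in S-type roots, and 10.1% under salt and 4.14% under control in nodal roots. The share of YSL16 was larger under salt in all 3 root types. It was 15.4% against 7.77% under control in L-type roots and 19.0% against 8.82% under control in S-type roots. In nodal roots it was 11.5% against 4.95% under control. A share also depends on the summed FPKM of the family. That sum was 275 under salt and 348 under control in L-type roots, and 243 and 466 in S-type roots. In nodal roots the sum was 192 under salt and 159 under control. In S-type roots YSL16 itself had 46.2 FPKM under salt and 41.1 under control, so its larger share there came mostly with the smaller sum.

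YSL15 was the leading family member in both control laterals. YSL6, known in rice as a carrier of manganese bound to nicotianamine, led in the salt laterals and in both nodal libraries. YSL6 varied little, between 89.4 and 96.3 FPKM under salt and between 74.2 and 88.0 FPKM under control. The FPKM of YSL15 was 84.5 times that of YSL2 under salt and 2.47 times under control in L-type roots. That ratio was 26.8 under salt and 1.92 under control in S-type roots, and 83.3 under salt and 1.56 under control in nodal roots. The salt figures are rough, since YSL2 had 11, 29 and 6 fragments in salt L-type, S-type and nodal roots. In salt nodal roots its counting interval ran from 0.0851 to 0.505 FPKM. Set against YSL16, YSL15 stood at 1.11 times under salt and 4.05 times under control in L-type roots, and at 0.786 times under salt and 4.16 times under control in S-type roots. In nodal roots that ratio was 0.879 under salt and 0.836 under control.

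**Figure D3:**
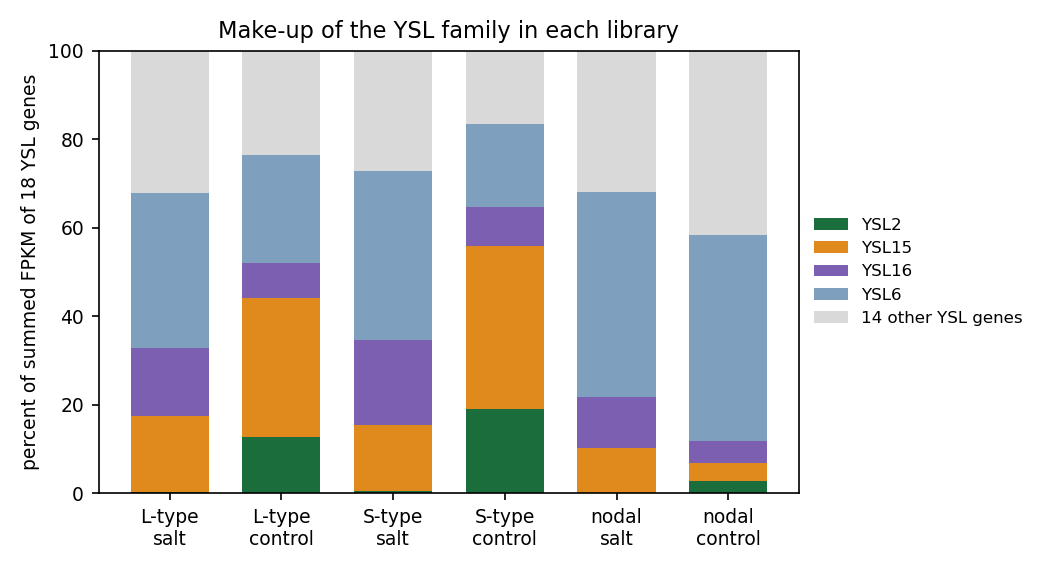
Share of the summed FPKM of 18 YSL genes (percent, y axis) taken by YSL2, YSL15, YSL16, YSL6 and the 14 others in each library, 1 bar per library. The green YSL2 section, at 12.7% and 19.1% of the bars for L-type and S-type controls, is hardly visible in the salt bars, and the YSL6 section is wider in both salt laterals than in their controls.

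Of the other 15 YSL genes, 7 held at most 3 fragments in every library, and 7 passed the minimum of 50 scaled fragments in at least 1 comparison of salt with control. None of the measured genes was at least 2-fold higher under salt in any root type, and 1 of 6 was lower by that margin in S-type roots. Over all genes 1.64% were higher in L-type, 1.63% in S-type and 1.27% in nodal roots, and 1.80% were lower in S-type roots, so that no higher gene among 6 or 7 is near the background. That gene was Os04g0524500, at 106 scaled fragments under salt and 219.9 under control in S-type roots (log2 ratio -1.04), with -0.82 in L-type and -0.03 in nodal roots. The remaining log2 ratios of measured members lay between -0.49 and 0.61. The median over the measured family genes was 0.25 in L-type, -0.09 in S-type and 0.10 in nodal roots, and that over all genes was -0.00, -0.02 and -0.02. YSL9, which carries iron complexes in rice and lies 25.1 kb from YSL16 with 2 gene models between them, had -0.07 in L-type, -0.26 in S-type and 0.21 in nodal roots.

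YSL2 and YSL15 are direct neighbours. The 24.8 kb between them held 0 gene models, and their log2 salt ratios had opposite signs in nodal roots. On the far side of YSL2, 1.38 kb away, a model without an identifier (chromosome 2, 26167904 to 26169471) had 0 fragments under salt and 11 under control in L-type roots. It had 0 under salt and 18 under control in S-type roots, and 0 in both nodal libraries. A count of 0 leaves room for a low level that was not sampled. On the far side of YSL15, Os02g0650500 had log2 salt ratios of 0.10 in L-type, 0.08 in S-type and 0.49 in nodal roots.

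The genes of iron and nicotianamine metabolism were set beside them from a list of 22 recalled symbols, of which 12 could be matched. At least 2-fold lower under salt were 5 of 10 measured genes in L-type roots, 4 of 9 in S-type roots and 0 of 9 in nodal roots, where the share of all genes was 4.22%, 1.80% and 1.75%. At least 2-fold higher were 2, 2 and 1 in the same order, and the share of all genes was 1.64%, 1.63% and 1.27%. The list's median log2 ratio was -0.64 in L-type, -0.59 in S-type and 0.59 in nodal roots.

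Several genes of the list were, like YSL15, lower under salt in both laterals by at least 2-fold and not lower by that margin in nodal roots. The share of all genes with this pattern was not counted. In nodal roots YSL15 had a log2 ratio of 1.58, and NAS1 and NAS2 were also above 0, while NAAT1 and NRAMP1 were below 0. NAS1 and NAS2, which encode nicotianamine synthases and are similar enough that reads may be shared between them, had 14.3 and 11.4 FPKM under salt in L-type roots, against 87.6 and 152 FPKM under control. In nodal roots NAS1 had 69.3 FPKM under salt and 43.7 FPKM under control, and NAS2 had 87.8 FPKM under salt and 58.4 FPKM under control. NAAT1, an aminotransferase of phytosiderophore synthesis, had log2 ratios of -2.49 in L-type, -3.70 in S-type and -0.24 in nodal roots. The metal transporter gene NRAMP1 had -3.93, -5.17 and -0.56. IRO3, a transcription factor of the iron deficiency response, was past 2-fold in L-type roots alone (-1.36), had -0.59 in S-type roots and was below the minimum in nodal roots. No measured gene of the list was at least 2-fold lower in nodal roots, where YSL2 had -3.66.

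Others had ratios above 0 in all root types, as YSL16 did. The share of all genes with such ratios was not counted, and YSL16 in S-type roots, at 0.17, was number 4053 from the highest of 14762 genes. VIT2, a vacuolar iron transporter gene, had log2 ratios of 1.84 in L-type, 2.77 in S-type and 1.71 in nodal roots. NAS3, a further nicotianamine synthase gene, had 1.04, 1.59 and 0.96. NRAMP5, the manganese uptake transporter gene of rice roots, had 0.37, 0.15 and 0.96, each within 2-fold. In the YSL family, YSL12 had 0.58, 0.26 and 0.61, and YSL6 had 0.20, 0.08 and 0.28, in the same order. The other measured family genes each had a ratio below 0 in some root type.

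**Figure D4:**
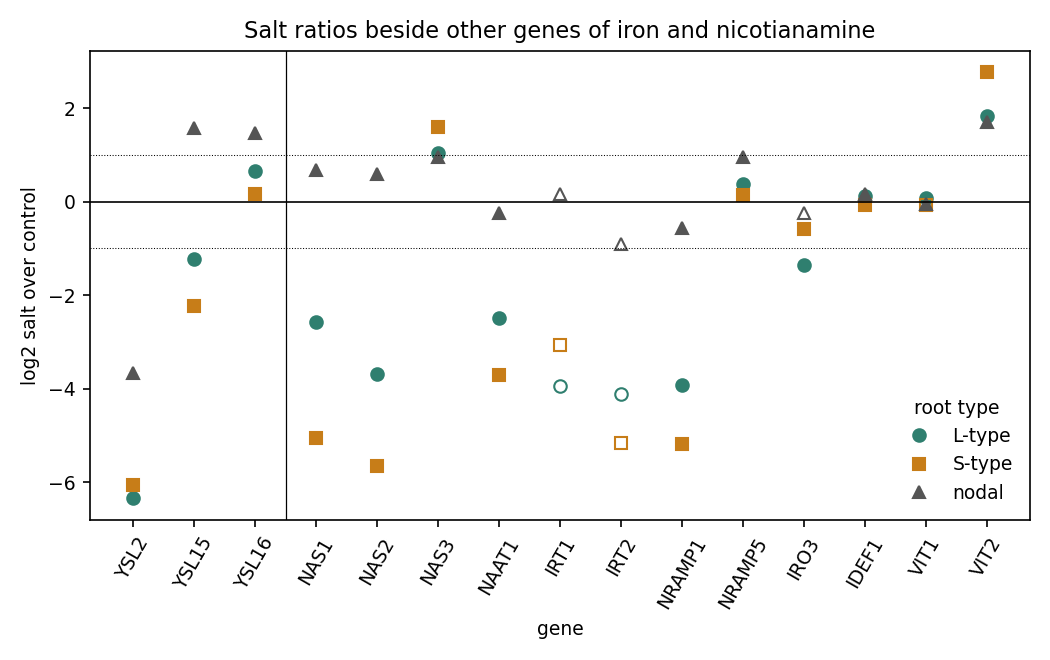
Log2 ratio of salt over control (y axis) of YSL2, YSL15 and YSL16, left of the line, and of 12 other genes of iron and nicotianamine, by root type; open symbols are below 50 scaled fragments in both libraries and dotted lines mark 2-fold. NAS1, NAS2, NAAT1 and NRAMP1 sit below -2 in both laterals and within 2-fold in nodal roots, whereas YSL2 is low in all 3.

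Genes with the most similar pattern were ranked by Pearson's r of log2 values over the 6 libraries, among 9453 genes that varied at least 2-fold. The libraries differ by root type and salt together, and genes are not independent, so r is a description with no p. For YSL2 the first was Os06g0725000 (r = 0.994), with 194 scaled fragments under salt and 393 under control in L-type roots, a smaller range than that of YSL2. Next came Os01g0608101 (0.988), Os01g0495701 (0.987), Os02g0649300 (0.981) and Os02g0514500 (0.972). Os02g0649300 lies 26.1 kb from YSL2 on the side away from YSL15. For YSL15 the first was Os12g0596300 (0.985), followed by Os06g0698812 (0.981), Os07g0686800 (0.979), a model without an identifier on chromosome 12 (0.978) and Os02g0533800 (0.975). For YSL16 it was Os04g0506700 (0.997), followed by Os07g0206600 (0.992), Os06g0689700 (0.990), Os11g0222900 (0.990) and Os01g0782200 (0.989). Some of these genes had few fragments. Os01g0608101 and Os01g0495701 had 0 scaled fragments in salt nodal roots and 3.68 or fewer in the salt laterals. Os12g0596300 had 50.1 in its highest library, control S-type roots, and 5.21 in control nodal roots. The files give no name for any of the similar genes.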

How the data were processed

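Per the submitters' processing notes, the tools were Cuffdiff and Cufflinks (both 2.2.1), TopHat2 (2.0.11), Bowtie and Trimmomatic (0.32), with the genome build IRGSP-1.0. Libraries were strand-specific per the labels' protocols. Settings, and the treatment of reads that match several genes, are not given in the sources used here. The deposited count table holds a signal, fragment counts multiplied by 1 factor per library: 99.90% to 99.96% of values above 0 were whole multiples of that factor within 0.02 fragments. 1 fragment was worth 0.829 to 1.286, and whole fragments were recovered from it. A second table deposited by the authors gives FPKM, q-values and calls for 15 pairs of libraries.

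No test was made, because each group has 1 library and the genes and lists were chosen with earlier results of these data known. Salt ratios are log2 of scaled fragments plus 1, and counts over genes require 50 scaled fragments in the higher library. Intervals are exact Poisson for levels, exact conditional binomial for ratios and exact conditional odds ratios for differences of ratios. They leave out the added 1. Named genes are the 3 members, models beside YSL2 and YSL15, list genes past 2-fold and the 5 most similar genes by r. YSL6, YSL9, YSL12, YSL14, NRAMP5 and the marker genes were named beyond that rule after their values were seen. Symbols were recalled and kept where the RefSeq table (assembly ASM3414082v1) had them on the same chromosome in the same order, with a span of 0.4 to 1.6 times the model: 13 of 15 family, 12 of 22 iron and 9 of 10 marker symbols. The family genes Os04g0524500 and Os04g0524900, whose order disagreed, are given by identifier. Promoter motifs had been planned and were not analysed here, since no sequence was at hand. Scripts ran on Python 3.11.15 with scipy 1.17.1, and edgeR 4.0.16 gave TMM factors. They were tested on simulated data.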

Additional observations from a re-analysis of the deposited data

Results flagged for a closer look

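Salt ratios of opposite sign in different root types, each with a counting interval on its own side of 0, were looked for among the 27 genes, the 3 members included, that passed the minimum, and 7 had them (25.9%). By the same rule 1981 of 16863 genes (11.7%) had them. None of these differences between root types was tested, since each group has 1 library. The share of 25.9% is not read against 11.7%, since YSL15 and the lists were chosen with earlier results of these data known. Nor were the 7 genes shown to be independent of each other. Reads shared between NAS1 and NAS2 were not excluded, and CESA4, CESA7 and CESA9 differed in the same direction. YSL15 had a difference in log2 salt ratio of -2.82 for L-type minus nodal and -3.81 for S-type minus nodal roots. NAS1 had -3.24 and -5.72, and NAS2 had -4.27 and -6.24, in the same order. YSL14 had 0.78 for L-type minus nodal roots, where its L-type ratio of 0.29 had an interval from 0.01 to 0.58. The secondary wall genes CESA4, CESA7 and CESA9 had 0.90, 1.13 and 1.23 for L-type minus nodal roots, so that they were higher under salt in L-type and lower in nodal roots. The part of that difference in the values of the YSL genes was not tested.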

How the results depend on the processing

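The 9 salt ratios of YSL2, YSL15 and YSL16 stayed within their counting intervals with edgeR's TMM, with scaling by library totals, with pseudocounts of 0.5 and 5 and with FPKM. The largest shift was 0.67, with a pseudocount of 5. TMM moved the ratios between root types by at most 0.03. Scaling by library totals moved the median of all genes by up to 0.26 and 6 root type ratios out of their intervals. Under control, the log2 ratio of L-type over S-type became -0.82 for YSL2 and -0.40 for YSL15. Under salt it became 0.65 for YSL15 and 0.14 for YSL16, whose sign had not been settled by its interval, and S-type over nodal roots became 0.67 for YSL15 and 0.80 for YSL16. The cause was not tested. The share of all genes past 2-fold between salt and control depended on the minimum. It was 5.86% in L-type, 3.43% in S-type and 3.02% in nodal roots at 50 scaled fragments, 9.33%, 7.40% and 6.02% at 10, and 16.4%, 15.3% and 10.9% with none. By Spearman's rho over 6 libraries, 6, 22 and 38 genes tied at 1 with YSL2, YSL15 and YSL16, so that 6 libraries do not single out a most similar gene. Each group holds 1 library, so that no replicate could be left out. Salt and control can be paired by root type, and the mean log2 salt ratio over the 3 root types was -5.35 ± 1.47 for YSL2, -0.62 ± 1.98 for YSL15 and 0.77 ± 0.66 for YSL16 (SD over root types). No test was made of this mean, because these ratios chose the genes. The root types are different tissues and not replicates, and for YSL15 the mean lies between ratios of opposite sign. Values under salt for YSL2 rest on 6 to 29 fragments.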
